A study of Homo sapiens with 12 samples.

Results

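SSP-25 is an established line of human intrahepatic cholangiocarcinoma (ICC), a cancer of the bile ducts inside the liver. Its baseline was read from the 2 RNA-seq libraries of SSP-25 that received a scrambled control siRNA, out of 12 libraries in the whole series. They were set against the control siRNA libraries of HuH-28 and RBE, the other ICC lines of the series, with 2 libraries each, so that 6 libraries entered the comparison. No library that received an siRNA against LKB1 was used. All cells compared had been transfected with 45 pmol of siRNA per well of a 6-well plate and harvested after 48 h. SSP-25 and RBE were grown in RPMI1640 and HuH-28 in MEM, so the medium and the HuH-28 line cannot be told apart. Each line is a single culture lineage, so the differences describe these lines and not ICC at large. A gene was named where SSP-25 differed from HuH-28 and from RBE in the same direction.

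Bile duct cells, or cholangiocytes, are polarised epithelial cells that line the ducts and are recognised by the keratins KRT7 and KRT19 and the adhesion molecule EPCAM. Hepatocytes, which arise from the same fetal progenitors, secrete albumin and other plasma proteins. Tumour cells of this lineage can lose epithelial junctions and take on mesenchymal genes such as VIM, and stress pathways such as the one driven by the transcription factor NRF2 are known to be active in some of them.

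The values are the authors' normalized reads per kilobase, called signal here, a level already divided by transcript length. The sum of signal per library lay between 9918899 and 11520901. No counts accompany these values, so sequencing depth could not be given. The libraries of a line were alike, with a Pearson r across 15602 genes of 0.994 in SSP-25 and 0.993 in each of the other lines. Across the same genes, which are not independent replicates, the mean of SSP-25 correlated with HuH-28 at 0.833 and with RBE at 0.836, while HuH-28 and RBE correlated with each other at 0.764. The sample labels do not say whether the 2 libraries of a line came from separate cultures. A figure legend of the study describes such numbered pairs as a first and a second test, without saying what was repeated. The p-values reflect just the scatter of these libraries, which may be technical. STK11, the gene for LKB1, had a signal of 464 and 459 in SSP-25, 698 and 600 in HuH-28 and 485 and 430 in RBE.

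Differences are given as log2(signal + 0.5), SSP-25 minus the other line, from limma fitted to the 15602 genes that reached a signal of 1 in 2 or more of the 6 libraries. Calls required a Benjamini-Hochberg adjusted p below 0.05 together with a log2 difference beyond 1. Of all genes tested, 2786 (17.9%) were higher in SSP-25 than in HuH-28 and 3265 (20.9%) were lower. Against RBE, 2958 (19.0%) were higher and 3012 (19.3%) were lower. Against the mean of both lines, 2424 (15.5%) were higher and 2922 (18.7%) were lower. In the same direction against both lines, 1207 genes (7.74%) were higher and 1211 (7.76%) were lower. In each of these genes the SSP-25 libraries lay outside the range of the 4 others, which the call itself makes likely. The comparisons with HuH-28 and with RBE share the SSP-25 libraries. A further 984 genes lay between the other lines, of which 468 were above HuH-28 and below RBE and 516 were below HuH-28 and above RBE. Of the 1207 higher genes, 219 had a signal under 1 in all 4 other libraries and so passed the filter through SSP-25 alone. Of the 1211 lower genes, 303 had a signal under 1 in both SSP-25 libraries. Where a line is listed at or near 0, the log2 difference depends on the 0.5 that was added, and levels are given in place of a fold.

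**Figure D1:**
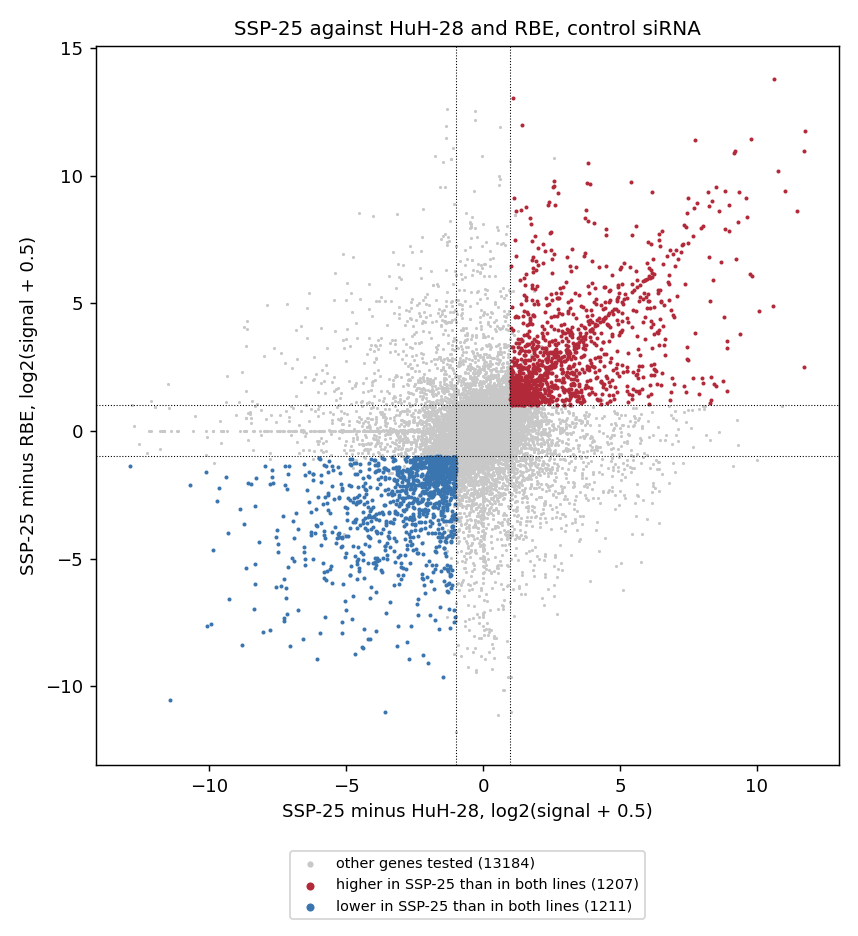
Difference of SSP-25 from HuH-28 (horizontal) and from RBE (vertical) on the log2(signal + 0.5) scale for each of 15602 genes. The 1207 genes in red were higher and the 1211 in blue lower in SSP-25 than in both lines, and dotted lines mark a difference of 1 in each direction.

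The gene that stood farthest above the mean of both lines was UCHL1, a ubiquitin C-terminal hydrolase abundant in neurons, which lies on chromosome 4 from 41256413 to 41268455 on the forward strand (GRCh38, GENCODE v29, as for all gene coordinates here). Its signal was 25106 and 25688 in SSP-25, 12.6 and 19.1 in HuH-28 and 0.837 and 1.88 in RBE. The difference was 10.63 ± 0.296 (SE) from HuH-28 and 13.80 ± 0.296 from RBE (adjusted p = 6.04e-07 and 2.39e-07, limma). The SSP-25 libraries differed from each other far less than they differed from either line.

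GREM1, a secreted antagonist of bone morphogenetic proteins (chromosome 15, 32717974 to 32745107, forward strand), had a signal of 6146 and 5926 in SSP-25. In HuH-28 it was 4.94 and 8.0, and in RBE 1.62 and 1.79. CLDN11, a tight junction claudin known from oligodendrocytes and Sertoli cells, reached 3881 and 4114 in SSP-25 and did not exceed 2.01 in any other library. Both genes were thus abundant in SSP-25 and close to 0 elsewhere.

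NR0B1, the nuclear receptor DAX-1 of the adrenal and gonadal axis, stood at 1768 and 1682 in SSP-25 and at no more than 0.0127 in the 4 other libraries. INA, a neuronal intermediate filament, stood at 860 and 897 against at most 0.658. Both genes were read at these levels in SSP-25 alone.

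Also among the 12 highest genes, CES1, a carboxylesterase of liver, was at 1357 and 1332 in SSP-25, at 5.04 and 6.55 in HuH-28 and listed at 0 in RBE. The small GTPase RAB34 was at 1124 and 1074 against at most 1.99 in the other lines. APCDD1L reached 1802 and 1830 and the membrane protein POPDC3 1005 and 1069, against at most 6.09 and 1.11. MAGED4 and MAGED4B are near-identical copies, so their values (1017 and 987, and 953 and 924, against at most 1.79) cannot be assigned to either copy with certainty.

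IGFBP2, a secreted binding protein of insulin-like growth factors (chromosome 2, 216632828 to 216664436, forward strand), stood farthest below both lines. Its signal was 1.5 and 0.705 in SSP-25, 4284 and 4225 in HuH-28 and 2433 and 2152 in RBE. The difference was -11.42 ± 0.217 from HuH-28 and -10.53 ± 0.217 from RBE (adjusted p = 1.9e-07 and 2.08e-07, limma). SULF2, an enzyme that removes sulfate from heparan sulfate at the cell surface, was at 0.717 and 0.677 in SSP-25, 1279 and 1342 in HuH-28 and 243 and 232 in RBE. PDGFRA, a receptor of platelet-derived growth factor, was at 2.09 and 0.852 in SSP-25, 1966 and 1690 in HuH-28 and 371 and 345 in RBE. All 3 were plainly expressed in both other lines and near 0 in SSP-25.

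Further down the same list, EEF1A2, an elongation factor of muscle and nerve, was at 5.91 and 2.50 in SSP-25 and between 937 and 1009 in the other lines. The iron regulator HFE was at 0.332 and 2.15 against 141 and 145 in HuH-28 and 423 and 415 in RBE. Troponin TNNT1 was at 0.0216 and 2.23 in SSP-25 against at least 390, and the growth suppressor NDN at 0.0121 and 0.533 against at least 167. GPRC5C, SHISA9 and TBL1X completed the 12 with SERPINA1 and GATA4, which are described with the liver genes.

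**Figure D2:**
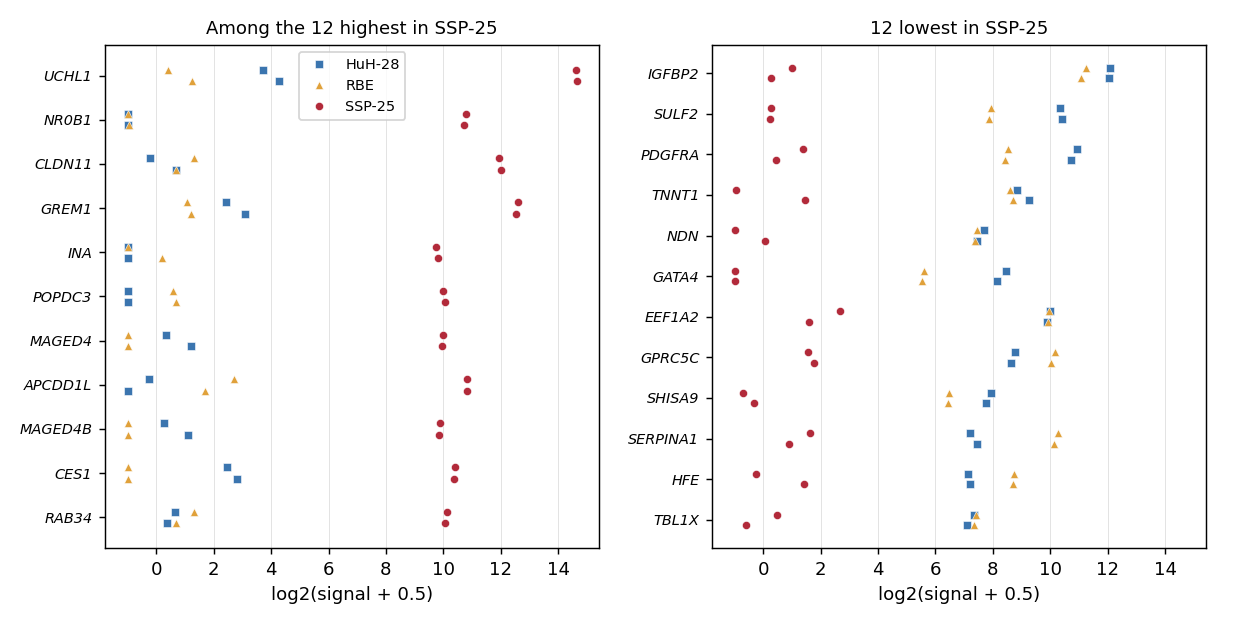
Signal in each control siRNA library, as log2(signal + 0.5), of genes among the 12 that stood highest (left) and of the 12 that stood lowest (right) in SSP-25 against both other lines, with 2 points a line. UCHL1 lay at 25106 and 25688 in SSP-25 and IGFBP2 at 1.5 and 0.705. The genes were picked so that in each row the SSP-25 points stand apart from the other 4.

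The biliary label was read against its markers. KRT7, the keratin of bile duct epithelium, was at 6048 and 5759 in SSP-25, above HuH-28 (2467 and 2406) and below RBE (14978 and 14456). KRT19 was at 964 and 916 in SSP-25, 9.86 and 11 in HuH-28 and 11826 and 11080 in RBE. EPCAM was at 96.5 and 111 in SSP-25, 0.597 and 1.31 in HuH-28 and 447 and 403 in RBE. In these 3 markers SSP-25 lay between the other lines beyond the threshold in each direction.

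SPP1, or osteopontin, was at 8906 and 9308 in SSP-25 and 4590 and 4642 in RBE, but only 7.86 and 2.18 in HuH-28. The tight junction gene CLDN4 was at 1835 and 1836 in SSP-25, level with RBE (1940 and 1891), and at 3.93 and 4.40 in HuH-28. SOX9, a factor of biliary progenitors, was at 253 and 253 in SSP-25, close to HuH-28 (208 and 188) and below RBE (621 and 607). The mucin MUC1 was at 27.2 and 31.8 in SSP-25, near RBE (33.2 and 39.3) and below HuH-28 (218 and 191). Among the other defining markers of the duct, ONECUT1, CFTR and TFF2 did not exceed 0.348 in SSP-25. Elsewhere ONECUT1 reached 1.08 and CFTR 3.31, and TFF2 was at 8.63 and 17.4 in HuH-28 and at most 0.0210 in RBE.

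Of 33 biliary genes tested, 2 were higher in SSP-25 than in both lines (6.1%, against 7.74% of all genes). A further 4 were lower (12.1%, against 7.76%). The median difference from the mean of both lines was -1.24, against -0.01 over all genes. Against that mean 18 of the 33 were called lower, where 18.7% of all genes were, and a gene lower than 1 line only can pass this comparison. SOX17, an endodermal factor of the extrahepatic bile duct, was among the higher genes (48.5 and 46.2 against at most 0.653). GATA4, a factor of liver and gut endoderm, was listed at 0 in both SSP-25 libraries and stood at 354 and 279 in HuH-28 and 48.4 and 46.2 in RBE. ONECUT2, SOX4 and PROM1 were the other lower genes, of which PROM1 had low levels throughout (at most 14.2) and lost its call with a pseudocount of 10.

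Of 28 hepatocyte genes tested, 2 (7.1%) were higher than in both lines, near the 7.74% of all genes. A further 7 (25.0%) were lower, against 7.76% of all genes, and the median difference from the mean of both lines was -2.03. Against that mean 21 of the 28 were called lower, where 18.7% of all genes were. A gene lower than 1 line only can pass this comparison, as HNF4A did. SERPINA1, the plasma protein alpha-1-antitrypsin, was at 2.58 and 1.37 in SSP-25, 147 and 174 in HuH-28 and 1244 and 1113 in RBE. NR1H4, the bile acid receptor FXR, was listed at 0 in SSP-25 and lay between 25.4 and 83.8 in the other lines. CEBPA, a factor of hepatocyte differentiation, was also listed at 0 in SSP-25, against 10.8 to 14.1. AFP, the fetal counterpart of albumin, went the other way, with 68.8 and 60.1 in SSP-25 and at most 2.33 elsewhere. HNF4A, a factor that defines hepatocytes, was at 0.383 and 0.192 in SSP-25, 0.196 and 0.140 in HuH-28 and 172 and 171 in RBE, and APOA1 did not exceed 3.60 in any library.

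Of 45 epithelial genes tested, 11 were higher than in both lines (24.4%, against 7.74% of all genes) and 4 were lower (8.9%, against 7.76%). In 15 others SSP-25 lay above HuH-28 and below RBE, as it did in 3.0% of all genes, and the remaining 15 had none of these patterns. Of the 11 higher genes, 4 passed the filter through SSP-25 alone. The higher group held regulators of epithelial identity at low levels. ESRP1, a splicing factor of epithelial transcripts, was at 24.1 and 23.5 in SSP-25 and at most 0.808 elsewhere. ESRP2, of the same family, went the other way without being called, at 22.8 and 30.7 in SSP-25 against at least 32.0. GRHL2, a grainyhead factor that activates junction genes, was at 11.9 and 14.5 in SSP-25 and listed at 0 in the other lines. RAB25, a GTPase of apical recycling, was at 40.7 and 44.5 against at most 2.89. AP1M2, the epithelial adaptor of basolateral sorting, was at 536 and 515 against 82.8 and 98.0 in HuH-28 and 7.52 and 5.99 in RBE. The claudin CLDN7 reached 71.2 against at most 26.7.

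KRT18, a keratin of simple epithelia, was lower in SSP-25 (1701 and 1802) than in HuH-28 (4272 and 4878) and RBE (7931 and 7705). The differences were -1.38 ± 0.080 and -2.16 ± 0.080 (adjusted p = 9.46e-06 and 1.58e-06, limma). The tight junction genes OCLN (20.9 and 21.4 against at least 105) and MARVELD2 (15.6 and 17.2 against at least 61.2) were lower as well, as was ELF3, an epithelial ETS factor (19.7 and 17.6 against at least 65.0). CDH1, the adhesion molecule E-cadherin, was at 39.0 and 43.2 in SSP-25, 30.0 and 33.3 in HuH-28 and 226 and 179 in RBE. Its difference was 0.37 from HuH-28 (adjusted p = 0.0529, limma), within the threshold of 1, and -2.28 from RBE, in the opposite direction.

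Mesenchymal genes were read in the same SSP-25 libraries, which pool the cells of a culture and cannot show whether single cells held both kinds. VIM, the intermediate filament of mesenchyme, was at 57948 and 57055 in SSP-25, 23296 and 22601 in HuH-28 and 46837 and 45242 in RBE. TWIST1, a factor that drives epithelial-mesenchymal transition, was at 307 and 326 in SSP-25, listed at 0 in HuH-28 and at 0.568 and 0.644 in RBE. ZEB1, another such factor, differed by -0.11 from HuH-28 and -0.05 from RBE, with 252 and 249 in SSP-25. ZEB2 and SNAI2 were near the levels of HuH-28 and above those of RBE. CDH2, or N-cadherin, was at 1414 and 1501 in SSP-25, level with RBE (1420 and 1379) and below HuH-28 (7829 and 7776). Of 40 mesenchymal genes tested, 5 were higher than in both lines (12.5%, against 7.74% of all genes) and 2 lower (5.0%, against 7.76%). Of these 5, 1 passed the filter through SSP-25 alone. In 12 others SSP-25 lay below HuH-28 and above RBE, as it did in 3.31% of all genes. Fibronectin FN1 was among these 12 (3534 and 3937 in SSP-25, 28139 and 29763 in HuH-28, 554 and 498 in RBE). SNAI1 was also called higher (668 and 570 in SSP-25, 299 and 242 in HuH-28), but its call was lost without either SSP-25 library or without the second HuH-28 library.

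Among the higher mesenchymal genes, TGFBI, a matrix protein induced by TGF-beta, was at 12488 and 12215 in SSP-25 against at most 4672, and the collagen cross-linking enzyme LOX was at 757 and 766 against at most 239. Smooth muscle actin ACTA2 was lower, at 23.9 and 25.7 in SSP-25 against at least 485. Of 18 tested markers of fibroblasts, endothelium, immune cells and nerve, 0 were higher than in both lines in limma (1 at an unadjusted p under 0.05 and any size, as were 21.2% of all genes). PDGFRA and PTPRC, or 2 of the 18, were lower (11.1%, against 7.76% of all genes). PTPRC (at most 6.59 in any library) lost its call without the first SSP-25 library or the second HuH-28 library. The leukocyte marker CD3E did not pass the filter on low signal. CD68, a lysosomal protein abundant in macrophages, was at 1888 and 1967 in SSP-25 and between 761 and 1683 elsewhere.

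**Figure D3:**
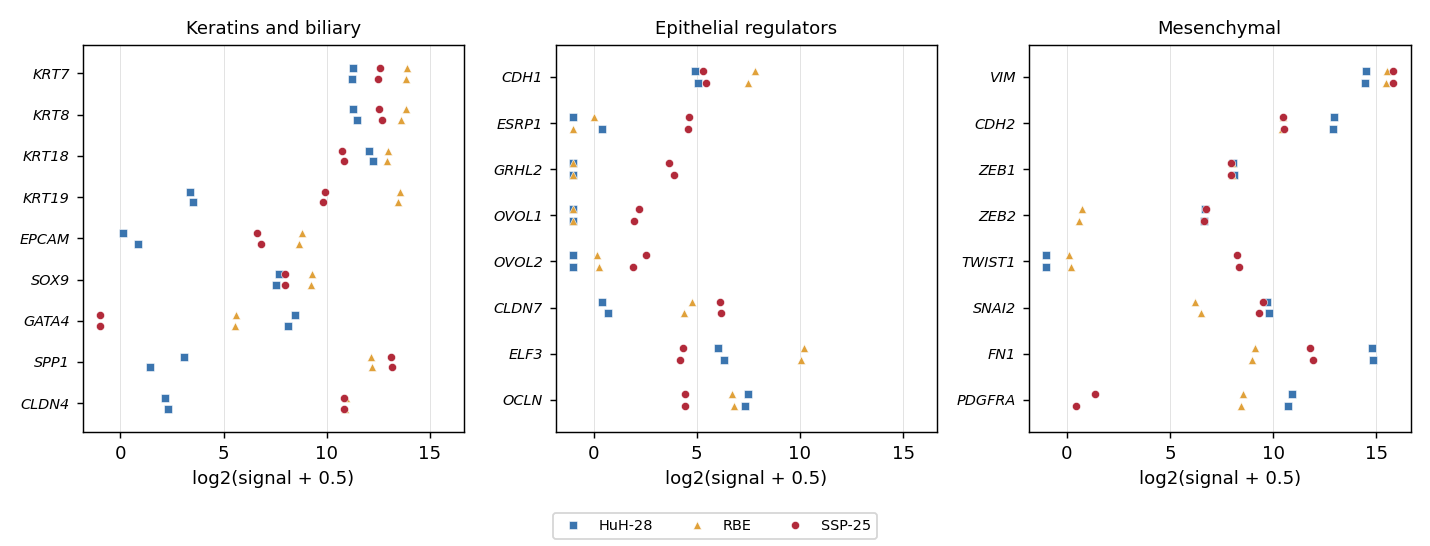
Signal in each library, as log2(signal + 0.5), of keratin and biliary genes, epithelial regulators and mesenchymal genes in HuH-28, RBE and SSP-25, with 2 points a line. KRT19 and EPCAM of SSP-25 lay between the other lines, GRHL2 and TWIST1 were read in SSP-25 alone, and GATA4 was listed at 0 in SSP-25.

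Genes of the NRF2 and glutathione system were often higher in SSP-25. NRF2, the protein of NFE2L2, binds antioxidant response elements in the promoters of detoxifying enzymes and is kept low by KEAP1, which targets it for degradation. Of 34 genes of this list tested, 18 (52.9%) were higher in SSP-25 than in both lines, against 7.74% of all genes, and 1 was lower (2.9%, against 7.76%). The median difference from the mean of both lines was 1.92, against -0.01 over all genes. The list was drawn up with earlier results on these libraries known.

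The promoters of 3 of these genes show the element that NRF2 is known to bind, with the core letters TGACNNNGC searched on both strands. They are printed from RefSeq (GRCh38.p14), 5′ to 3′ on the strand of the gene, from 250 bases before to 50 after the start, with each match in capitals. GCLM lies at chr1:93909381-93909680 on the reverse strand, TXNRD1 at chr12:104215529-104215828 and GSTP1 at chr11:67583562-67583861, both on the forward strand.
GCLM: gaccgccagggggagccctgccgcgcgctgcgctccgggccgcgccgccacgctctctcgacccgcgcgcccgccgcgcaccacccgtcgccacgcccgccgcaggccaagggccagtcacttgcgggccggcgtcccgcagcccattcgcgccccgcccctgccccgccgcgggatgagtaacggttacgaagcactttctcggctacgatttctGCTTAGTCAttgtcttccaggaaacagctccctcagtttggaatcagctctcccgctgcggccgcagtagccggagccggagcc
TXNRD1: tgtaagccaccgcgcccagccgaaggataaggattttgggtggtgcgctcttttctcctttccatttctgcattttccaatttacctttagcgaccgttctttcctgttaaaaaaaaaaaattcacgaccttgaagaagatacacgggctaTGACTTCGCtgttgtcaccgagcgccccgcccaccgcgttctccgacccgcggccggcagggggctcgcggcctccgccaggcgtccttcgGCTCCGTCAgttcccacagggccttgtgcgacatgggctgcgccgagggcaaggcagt
GSTP1: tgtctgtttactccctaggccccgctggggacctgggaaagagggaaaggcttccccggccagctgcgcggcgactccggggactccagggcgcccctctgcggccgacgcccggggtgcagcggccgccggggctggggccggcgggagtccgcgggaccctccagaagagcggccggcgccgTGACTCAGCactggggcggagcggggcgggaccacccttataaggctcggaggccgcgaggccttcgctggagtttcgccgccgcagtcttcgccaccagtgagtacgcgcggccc

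The match of GCLM lies on its reverse strand and begins 34 bases before the start, that of GSTP1 begins 66 bases before it, and TXNRD1 holds 2 matches, 99 and 8 bases before it. Of the 16 higher genes with a promoter in the table, 5 held the letters (GSTP1, PGD, GCLM, TXNRD1 and ME1), or 31.2%, and of the 10 other list members with a promoter, 2 did. Among 12477 promoters of genes tested, 14.6% did. A match is a description of the letters in this window and shows no binding.

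GCLM encodes the modifier subunit of the enzyme that starts glutathione synthesis. It was at 3821 and 3787 in SSP-25, 810 and 791 in HuH-28 and 659 and 690 in RBE, a difference of 2.25 ± 0.050 from HuH-28 and 2.50 ± 0.050 from RBE (adjusted p = 3.13e-07 and 1.97e-07, limma). GCLC, the catalytic subunit, did not follow, with 776 and 806 in SSP-25, 238 and 226 in HuH-28 and 909 and 1014 in RBE. SLC7A11, the cystine carrier that feeds this pathway, was at 2375 and 2746 in SSP-25 against 216 and 221 in HuH-28 and 169 and 188 in RBE, which is 11.7 and 14.4 times their means. GSTP1, a glutathione transferase, was at 7566 and 7287 in SSP-25, 3317 and 3067 in HuH-28 and 327 and 334 in RBE.

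The thioredoxin arm was higher throughout its reductase, its substrate and a downstream repair enzyme. TXNRD1, thioredoxin reductase, was at 23145 and 23633 in SSP-25, 7445 and 7446 in HuH-28 and 4202 and 4102 in RBE. TXN itself was at 21036 and 21411 against at most 7197. SRXN1, which repairs peroxiredoxins, was at 13822 and 13154 against at most 2731, and PRDX1, a peroxiredoxin, was at 30438 and 29681 against at most 14478.

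Of the 18 higher genes, the aldo-keto reductases of the AKR1C family stood farthest above the mean of both lines. AKR1C1 was at 42987 and 43227 in SSP-25, 29.3 and 25.6 in HuH-28 and 1509 and 1434 in RBE, 29.3 times the mean of RBE. AKR1C2 was at 10614 and 10740 and AKR1C3 at 19876 and 19440 in SSP-25, against at most 443 and 2104 elsewhere. These 3 genes are neighbours on chromosome 10 with near-identical sequences, so the split of reads among them is uncertain. OSGIN1, an oxidative stress-induced growth inhibitor, was at 3521 and 3396 against at most 419.

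Enzymes that supply NADPH were higher in part. PGD, of the pentose phosphate pathway, was at 12233 and 12127 in SSP-25 against at most 2545, TALDO1 at 9702 and 9436 against at most 2475 and malic enzyme ME1 at 1763 and 1724 against at most 781. TKT of the same pathway was level with RBE, at 7937 and 7436 in SSP-25 and 8345 and 7844 in RBE. NQO1, a quinone reductase, was at 11729 and 11836 against at most 5372, and the ferritin light chain FTL was at 199570 and 185360 against at most 79755. HMOX1, heme oxygenase, was level with HuH-28, with 1472 and 1393 in SSP-25, 1363 and 1401 in HuH-28 and 207 and 215 in RBE. AKR1B10, MGST1 and GSR had another pattern, above HuH-28 without passing against RBE.

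The mRNA of NRF2 itself did not stand out. NFE2L2 was at 1737 and 1690 in SSP-25, 1301 and 1362 in HuH-28 and 1744 and 1685 in RBE. KEAP1 was at 1435 and 1367 in SSP-25, 1254 and 1094 in HuH-28 and 716 and 669 in RBE. Mutations and protein levels were not analysed here.

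**Figure D4:**
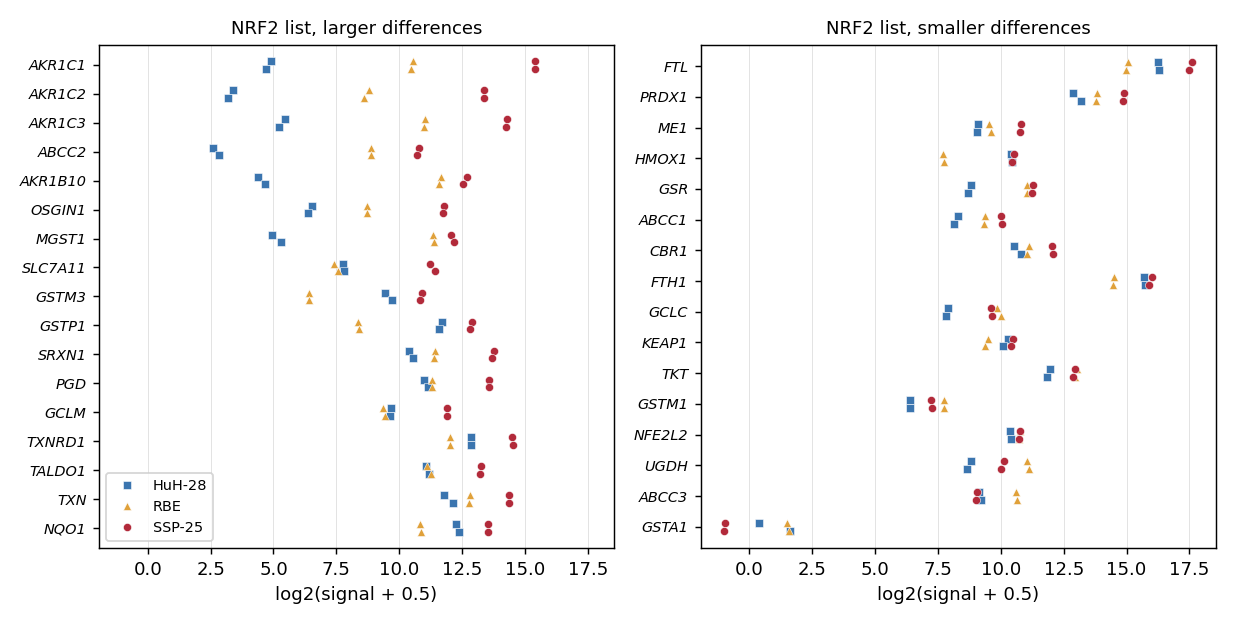
Signal in each library, as log2(signal + 0.5), of genes of the NRF2 and glutathione list, ordered by the difference of SSP-25 from the mean of the other lines, with 2 points a line. In the left panel AKR1C1 to SLC7A11 show the widest gaps, and NFE2L2 and KEAP1 in the right panel were not called.

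HOX genes are transcription factors laid out in 4 clusters whose order along the chromosome follows the body axis, and cells keep a HOX pattern typical of their site of origin. In the HOXD cluster of chromosome 2, 7 of 8 genes tested were higher in SSP-25 than in both lines, against 7.74% of all genes. Of these 7, 6 passed the filter through SSP-25 alone. HOXD11 was at 216 and 183 in SSP-25, HOXD10 at 133 and 130, HOXD13 at 82.1 and 74.8, HOXD9 at 32.6 and 39.5 and HOXD8 at 32.5 and 26.7. In the other 4 libraries these 5 genes did not exceed 0.0136. HOXD1, at the other end of the cluster, was at 12.3 and 11.2 and was listed at 0 elsewhere, whereas HOXD3, which lies between them, was at 0.560 and 0 in SSP-25. The HOXD genes expressed in SSP-25 thus came from both ends of the cluster.

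In the HOXA cluster of chromosome 7, 8 of 9 genes tested were higher, against 7.74% of all genes, and 2 of these 8 passed through SSP-25 alone. HOXA11 was at 128 and 129 in SSP-25, 1.93 and 2.41 in HuH-28 and listed at 0 in RBE. HOXA5 was level with RBE (16.7 and 15.8 against 17.4 and 10.8) and was not called. HOXA7 and HOXA13 had low levels, at most 17.3 in SSP-25, and lost their calls with a pseudocount of 10.

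The HOXB cluster was read in all lines. There, 4 of 9 genes were higher, against 7.74% of all genes. They were HOXB4 (37.2 and 36.9 against at most 8.60), HOXB8, HOXB9 (135 and 124 against at most 41.3) and HOXB13 (25.8 and 29 against at most 4.86). HOXB2 lay between the lines, with 35.4 and 36.5 in SSP-25, 315 and 351 in HuH-28 and at most 0.591 in RBE. In the HOXC cluster only HOXC9 of 5 genes tested was called, at 4.10 and 6.51 in SSP-25, and its call was lost without the second SSP-25 library.

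**Figure D5:**
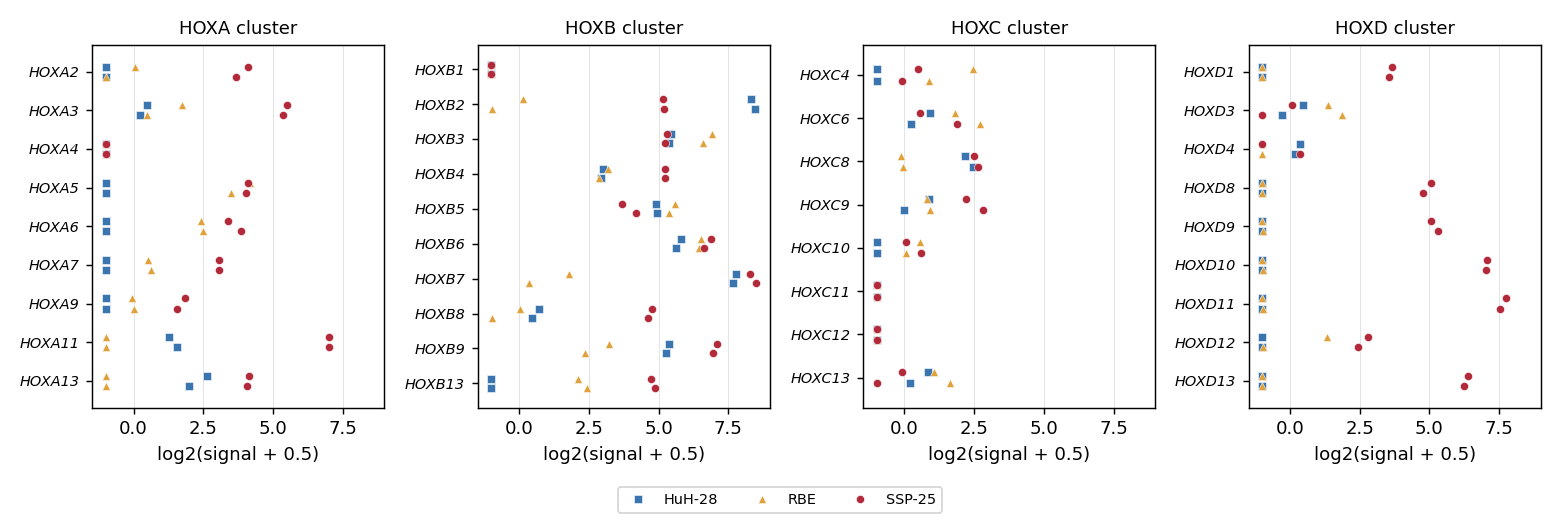
Signal in each library, as log2(signal + 0.5), of genes of the 4 HOX clusters in their numbered order, with 2 points a line. HOXD8 to HOXD13 and HOXA11 were higher in SSP-25 than in both lines, while HOXC genes stayed low in all lines.

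Other lineage factors also set SSP-25 apart. Of 82 genes of such families tested, 23 were higher than in both lines, against 7.74% of all genes, and 14 were lower, against 7.76%. Of the 23 higher genes, 9 passed the filter through SSP-25 alone. LHX1, a homeobox factor of kidney and nervous system development, was at 99.3 and 91.1 in SSP-25 and at most 2.75 elsewhere. GATA2, a factor of blood and endothelium, was at 79.3 and 78.9 against at most 4.34, and GATA3, of T cells and luminal epithelium, was at 89.9 and 93.5 against at most 31.8. RUNX3, a factor of lymphocytes and gut epithelium, was at 52.0 and 55.8 against at most 0.446, and DLX1, of forebrain interneurons, was at 94.0 and 124 against at most 1.66.

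Among the lower factors, MSX2, a homeobox factor downstream of BMP signals, was at 3.37 and 3.19 in SSP-25, 358 and 354 in HuH-28 and 86.7 and 89.1 in RBE. NR2F1, an orphan nuclear receptor, was at 15.0 and 18.5 against at least 228, and FOXQ1 at 13.7 and 17.9 against at least 93.2. SOX4 was at 108 and 105 against at least 362. All of these were expressed in both other lines and reduced in SSP-25.

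In the TGF-beta, BMP and activin family, ligands, receptors and SMAD transducers were more often lower than higher. Of 43 tested, 10 were lower (23.3%, against 7.76% of all genes) and 3 higher (7.0%, near the 7.74% of all genes). SMAD4, the common transducer, was at 106 and 111 in SSP-25, 263 and 292 in HuH-28 and 260 and 254 in RBE, a difference of -1.35 ± 0.077 and -1.24 ± 0.077 (adjusted p = 9.22e-06 and 1.36e-05, limma). SMAD2, which carries the TGF-beta signal, was at 48.1 and 43.4 against at least 106, and the inhibitory SMAD7 was at 193 and 170 against at least 422. ID2, a target of BMP signals, was at 299 and 371 against at least 2316, and the stress-induced ligand GDF15 was at 23.8 and 33.5 against at least 312. Besides GREM1, the higher genes were the latent TGF-beta binding protein LTBP4 (125 and 117 against at most 17.7) and the receptor BMPR1B, which had low levels (9.20 and 9.97) and lost its call with a pseudocount of 10. SMAD2, SMAD7 and SMAD4 all lie on the long arm of chromosome 18.

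Among Wnt receptors and antagonists, 7 of 37 were lower (18.9%, against 7.76% of all genes) and 3 higher (8.1%, near the 7.74% of all genes). DKK1, a secreted inhibitor of the Wnt coreceptor LRP6, was at 4809 and 4776 in SSP-25, 822 and 885 in HuH-28 and 118 and 112 in RBE, which is 5.62 and 41.6 times their means. DKK3 was at 936 and 949 against at most 317. Negative regulators of another kind were lower. RNF43, which removes Frizzled receptors from the surface, was at 5.58 and 3.85 against at least 32.3, and the DKK receptors KREMEN1 and KREMEN2 were at 8.07 and 7.40 and at 1.12 and 1.47. The receptor FZD1 was at 50.2 and 47.5 against at least 116. Of 12 Wnt ligands only WNT5B was called higher (146 and 151 against at most 45.4), while WNT7B and WNT5A lay between the lines.

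Of 15 ERBB receptors and ligands, 2 were higher and 2 lower than in both lines (13.3% each). Of 38 other receptor tyrosine kinases and ligands, 4 were higher (10.5%) and 6 lower (15.8%), against 7.74% and 7.76% of all genes. FGF2 was at 286 and 319 in SSP-25 against at most 53.2, EGF at 65.5 and 65.7 against at most 14 and PDGFD at 74.1 and 92.4 against at most 18.9. Among receptors, PDGFRA, FGFR3 (8.45 and 8.77 against at least 25.0), ERBB3 (5.91 and 5.95 against at least 18.5) and the insulin receptor INSR (1.05 and 0.666 against at least 10.1) were lower, of which ERBB3 lost its call with a pseudocount of 10. IGF2, a fetal growth factor, was at 0.508 and 0.320 against at least 30.5. TYRO3, a TAM family kinase, was higher (693 and 635 against at most 264), and EGFR, at 790 and 800 in SSP-25, passed against HuH-28 but not against RBE. Of 22 Notch pathway genes, 2 were higher (9.1%, against 7.74% of all genes) and 5 lower (22.7%, against 7.76%). The higher genes were the receptor NOTCH3 (68.0 and 69.4 against at most 1.13) and the target HEYL. Among the lower genes, the target NRARP was at 4.46 and 4.61 against at least 65.1, so targets went in both directions.

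Of 24 integrin subunits, which bind cells to the matrix, 5 were lower (20.8%, against 7.76% of all genes) and 1 was higher than in both lines (4.2%, against 7.74%). ITGA3, a laminin receptor, was at 2475 and 2554 in SSP-25 against at least 5364, ITGA6 at 285 and 330 against at least 739, ITGA2 at 170 and 223 against at least 635 and ITGA1 at 42.8 and 49.0 against at least 146. Of 35 laminins and matricellular proteins, 7 were lower and 3 higher. The proteoglycan VCAN was at 29.2 and 36 against at least 845, and the laminin chain LAMA5 was at 77.0 and 91.3 against at least 596. LAMB3, a chain of laminin-332, was the clearest exception, with 2718 and 2693 in SSP-25 against 102 and 110 in HuH-28 and 365 and 390 in RBE.

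Collagens split, with 4 higher (12.5%, against 7.74% of all genes) and 5 lower (15.6%, against 7.76%) of 32. The anchoring fibril collagen COL7A1 was at 609 and 539 against at most 148, whereas COL4A4 of basement membranes was at 2.13 and 2.61 against at least 43.4 and COL13A1 at 23.3 and 29.9 against at least 124. COL1A1 was at 6952 and 6538 in SSP-25, 13992 and 12720 in HuH-28 and 43.5 and 43.9 in RBE. Of 39 proteases and their inhibitors, 6 were higher (15.4%, against 7.74% of all genes) and 1 was lower (2.6%, against 7.76%). Of these 6, 3 passed the filter through SSP-25 alone. SERPINB2, an inhibitor of urokinase, was at 4331 and 4076 in SSP-25, 1855 and 2086 in HuH-28 and listed at 0 in RBE, and cathepsin CTSS was at 262 and 272 against at most 51.7. The kallikrein KLK6 was at 24.7 and 26.9 in SSP-25 and did not exceed 0.601 elsewhere. The actin cross-linker FLNC was at 2394 and 2278 against at most 33.5, 113 times the mean of HuH-28 and 70.9 times that of RBE.

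Among guidance molecules, 7 of 38 Eph receptors, ephrins, semaphorins and their receptors were lower (18.4%) and 2 higher (5.3%). The shares of all genes were 7.76% and 7.74%. PLXNB1, a semaphorin receptor, was at 10.8 and 10.2 in SSP-25, 388 and 388 in HuH-28 and 204 and 204 in RBE, while SEMA7A was at 1444 and 1630 against at most 127. Of 21 genes of hyaluronan, syndecans and glypicans, 4 were lower (19.0%) and 2 higher (9.5%), with GPC6 at 17.4 and 15.4 against at least 164.

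Of 47 interferon-stimulated genes, 7 were higher (14.9%, against 7.74% of all genes) and 3 lower (6.4%, against 7.76%). SAMD9L was at 173 and 172 in SSP-25 against at most 5.54, IFI44 at 801 and 765 against at most 91.9, IFI44L at 101 and 106 against at most 10.1, XAF1 at 50.5 and 56.9 against at most 4.78 and OAS2 at 48.7 and 47.7 against at most 7.45. IFITM2, which blocks virus entry, was lower (268 and 287 against at least 1512). Canonical members did not follow. ISG15 was at 830 and 806, between HuH-28 (1365 and 1452) and RBE (137 and 118), and MX1 at 14.3 and 18.4 was near HuH-28. Of 18 class I antigen presentation genes, 0 were called in either direction by limma, and 3 were higher and 1 lower than both lines at an unadjusted p under 0.05 and any size, where 21.2% of all genes were higher and 19.2% lower. Of 12 class II genes, 3 were higher and 3 lower (25.0% each, against 7.74% and 7.76% of all genes). The invariant chain CD74 was lower (3.75 and 3.58 against at least 24.8), as were HLA-DRB1 and HLA-DRB5, which are close paralogs and thus uncertain, and HLA-DRB5 lost its call without the first library of SSP-25 or of RBE.

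Of 50 chemokines and cytokines, 3 were higher and 3 lower, 6.0% each and thus under the 7.74% and 7.76% of all genes. In 15 SSP-25 lay below HuH-28 and above RBE, as it did in 3.31% of all genes. CXCL5, a neutrophil chemokine, was at 365 and 430 against at most 81.1, and CCL20 was lower at 2.54 and 3.58 against at least 22.5, as was lipocalin LCN2 (35.6 and 33.3 against at least 96.1). IL6 was at 186 and 193 in SSP-25, 4199 and 4717 in HuH-28 and at most 0.0170 in RBE, so that SSP-25 held the middle place.

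Few cell cycle genes passed the threshold. Of 37 mitosis and spindle genes, 2 were higher (5.4%, against 7.74% of all genes). They were AURKB (4584 and 4292 against at most 1611) and CENPA (826 and 844 against at most 389). The median difference of the list was 0.59, against -0.01 over all genes. At an unadjusted p under 0.05 and any size in limma, 21 of the 37 were higher than both lines and 0 lower, where 21.2% of all genes were higher and 19.2% lower. Of 36 DNA replication genes, 2 were lower (5.6%, against 7.76% of all genes), MCM6 and TYMS. TYMS, thymidylate synthase, differed by -1.05 ± 0.076 from HuH-28 and -1.19 ± 0.076 from RBE, close to the threshold, and lost its call without the first HuH-28 library. CCND3, a G1 cyclin, was at 3325 and 3343 against at most 1226, and CCNE1 was lower at 72.8 and 69.3 against at least 213. At 9p21, CDKN2A was at 321 and 336 in SSP-25, 1528 and 1566 in HuH-28 and 0.917 and 1.53 in RBE, and MTAP, its neighbour, was at 163 and 167 in SSP-25, 217 and 223 in HuH-28 and listed at 0 in RBE.

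Of 29 p53 targets, 5 were lower (17.2%, against 7.76% of all genes) and 1 higher (3.4%, against 7.74%). The death receptor FAS was at 63.2 and 75.4 in SSP-25 against at least 262, BBC3, or PUMA, at 26.9 and 26.2 against at least 94.4, TP53INP1 at 11.6 and 11.3 against at least 67.6 and BTG2 at 12.1 and 14.5 against at least 35.4. GDF15 is the fifth. TP53I3, a quinone oxidoreductase, went the other way, with 5998 and 5512 in SSP-25, 106 and 92.9 in HuH-28 and 312 and 293 in RBE, 58.0 and 19.0 times their means.

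Drug and bile handling genes went in both directions. Of 37, 7 were higher (18.9%, against 7.74% of all genes) and 6 lower (16.2%, against 7.76%). The efflux pump ABCG2 was at 113 and 105 in SSP-25 against at most 12.8, and ABCC2, which exports bilirubin conjugates, was at 1763 and 1691 against 5.59 and 6.67 in HuH-28 and 474 and 475 in RBE. ABCB1, or P-glycoprotein, was lower at 12.5 and 12.1 against at least 59.0, and the cation carrier SLC22A3 at 28.4 and 34.7 against at least 344. The uptake carrier SLCO1B3 was at 105 and 125 against at most 19.4. GSTT1, a glutathione transferase, was at 408 and 378 in SSP-25 and at most 0.934 elsewhere.

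Among metabolic genes, LDHB was at 14840 and 14306 in SSP-25, 2308 and 2785 in HuH-28 and 141 and 133 in RBE, while LDHA (9156 and 9492) was below the other lines by less than the threshold. Carbonic anhydrase CA12 was at 219 and 213 against at most 85.7. IDH2, mitochondrial isocitrate dehydrogenase, was lower at 476 and 484 against at least 1322, and SREBF1, the regulator of fatty acid synthesis, at 147 and 160 against at least 327. ATP5A1, a subunit of ATP synthase, was lower at 2129 and 2096 against at least 6191 and lies on chromosome 18. Of 42 oxidative phosphorylation genes it was 1 of 2 that were lower (4.8%, against 7.76% of all genes). Of 43 cytosolic ribosomal protein genes, 0 were called in either direction by limma. At an unadjusted p under 0.05 and any size in limma, 4 were higher and 8 lower than both lines (21.2% and 19.2% of all genes).

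Of 22 oncofetal genes, 4 were higher and 4 lower than in both lines (18.2% each), with a median difference of -0.23. The shares of all genes were 7.74% and 7.76%. The RNA-binding protein IGF2BP1 was at 586 and 597 against at most 3.72, and IGF2BP3 at 3073 and 3232 against at most 340, which is 50.3 times the mean of HuH-28 and 9.29 times that of RBE. LIN28A, another RNA-binding protein of the list, was at 1.06 and 0.753 in SSP-25, 2.11 and 6.74 in HuH-28 and listed at 0 in RBE. PRAME, a cancer-testis antigen, was at 630 and 600 in SSP-25, 36.2 and 44.4 in HuH-28 and at most 0.650 in RBE. In 10 of 23 such antigens SSP-25 lay below HuH-28 and above RBE, as it did in 3.31% of all genes. SMARCA1, an ATPase of chromatin remodelling, was at 895 and 872 in SSP-25, 2.19 and 0.927 in HuH-28 and 39.2 and 40.0 in RBE.

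A stricter reading took genes that were silent in SSP-25 or active there alone. With a signal under 1 in both SSP-25 libraries and at least 20 in each of the 4 others, 20 genes were silent in SSP-25. They include SULF2, GATA4, NDN, NR1H4 and TBL1X, the transcription factor MAF (0.158 and 0.147 against at least 25.1), the fragile site gene FHIT (0.866 and 0 against at least 34.3), the protease ADAMTS10 and the zinc finger genes ZNF467 and ZNF614. The reverse rule gave 43 genes active in SSP-25 alone. Besides the HOXD genes, TWIST1, NR0B1 and INA named above, they include NKX6-1, a factor of pancreatic beta cells (107 and 95.9 against at most 0.0174), the AP-1 family factor BATF of lymphocytes (249 and 272 against at most 0.777), the hyaluronan receptor LAYN (444 and 454) and BVES (256 and 261), a relative of POPDC3. Among promoters in RefSeq, 13 of 15 of the silent genes (86.7%) had a CpG observed to expected ratio of at least 0.6, as had 22 of 31 of the genes active in SSP-25 alone (71.0%) and 75.1% of 12477 promoters. DNA methylation was not analysed here.

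The called genes were unevenly spread over the chromosomes. Among 11971 genes whose mean signal reached 20 and whose chromosome was known, 5.8% were higher and 6.7% lower than in both lines. On chromosome 18, 50 of 171 genes were lower (29.2%) and 5 higher, and the median difference from the mean of both lines was -0.94. On chromosome 5, 85 of 573 were lower (14.8%). On the X chromosome 83 of 434 were higher (19.1%) and 9 lower, on chromosome 4 51 of 440 were higher (11.6%) and on chromosome 7 62 of 550 (11.3%). The share of lower genes on chromosome 18 was thus the highest of any chromosome.

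Runs of 51 neighbouring genes, picked from 10821 runs for their medians and so given without a test, placed these shifts. From ACAA2 to TSHZ1 on chromosome 18, 27 of 51 genes were lower than in both lines, and the median differences were -1.38 from HuH-28 and -1.41 from RBE. From ANKRD29 to LIPG on the same chromosome, 11 of 51 were lower, with medians of -0.93 and -0.72. From GLA to IL13RA2 on the X chromosome, 20 of 51 were higher and 0 lower, with medians of 1.88 and 0.94. From NUPL2 to RALA on chromosome 7, which holds the HOXA cluster, 15 of 51 were higher, with medians of 1.15 and 0.82. From PCDHA6 to ARHGAP26 on chromosome 5, 27 of 51 were lower. Most of these are clustered protocadherins, which share exons, so that their values are not independent (25 of 42 were lower and 0 higher).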

How the data were processed

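The authors sequenced RNA from the ICC lines as single reads (TruSeq V2). The deposited table holds normalized reads per kilobase, a signal without counts. The study's methods describe NextGENe and RefSeq mRNA on an older human build, whereas TopHat 1.2.0, hg19 and edgeR appear in the submitters' processing notes. The route that led to the table was not given in those sources. Of its 18815 rows, 17 that repeat a symbol with its values were left out, and values under 0.01 count as 0.

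Here log2(signal + 0.5) of the 6 control siRNA libraries was fitted with limma 3.58.1 in R 4.3.3, with a mean per line, eBayes with a trend and 3 residual degrees of freedom. Adjusted p-values follow Benjamini-Hochberg over all 15602 genes. On simulated data, 99% of 200 genes changed by 2 on the log2 scale were called, as were 2 unchanged genes among 14944. Members and gene lists were chosen with earlier results of these data known. Named genes are the 12 highest and 12 lowest, up to 6 called members of each list, the defining markers, STK11, and genes silent in SSP-25 or active there alone. The 12 highest and 12 lowest had to be called and expressed at 20 or more. Their SSP-25 libraries also had to lie outside the range of the other lines. Other genes were named after their values were seen. Lists were described by counts and medians, with no set test. Gene positions are from GENCODE v29 (GRCh38), chromosomes and promoters from RefSeq (GRCh38.p14). Deviations of same-numbered libraries from their line means were nearly uncorrelated over 12138 genes (r of 0.052, -0.006 and -0.018). Such values cannot show whether same-numbered libraries shared an experiment. The main fit did not pair them. As alternatives, the pseudocount, filter, scaling and thresholds were varied, the trend was dropped, a replicate block was added and each library was left out. Some members of the lists are counted but not reported here by name.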

Additional observations from a re-analysis of the deposited data

How the results depend on the processing

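The counts of genes higher and lower than both lines (1207 and 1211) and than the mean of both lines (2424 and 2922) depend on the thresholds and on low signals. A log2 difference above 2 gave 575 and 443 against both lines and 1161 and 1292 against the mean. A mean signal of at least 20 gave 701 genes higher than both, and 1597 and 1702 against the mean. A pseudocount of 10 gave 648 genes lower than both, and 1565 and 1783 against the mean. These alternatives test fewer genes or ask for more by construction. With the replicate block the counts were 1208 and 1219. Leaving out each library gave 937 to 1210 higher and 1166 to 1209 lower than both, and 2105 to 2448 higher and 2533 to 2803 lower than the mean. The low end of the higher counts came without an SSP-25 library, where genes read in SSP-25 alone no longer passed the filter. None of the 219 named and called genes reversed the sign of its difference from the mean of both lines in an alternative that tested it. These 4 counts and the counts of list members have no direction and were compared by size. List medians, genes between the lines, chromosomes and runs of genes were not recomputed. Of 219 named and called genes, 71 lost their call at a log2 difference above 2, 62 were not tested at a mean signal of at least 20, and 30 were not tested and 8 or 6 lost their call without the first or second SSP-25 library. Among the 219, 4 lost their call under a common upper quartile, which moved the median of all genes by -0.103, 7 under quantile scaling, 42 with a pseudocount of 10 and 1 with the replicate block (FGFBP1).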
